A study of Mus musculus with 17 samples.

Results

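The alpha and beta globin genes were read by 12 probes of the array, which carry 9 of its 30199 gene names. They were picked by name, as every non-control probe whose gene name begins with Hba- or Hbb- or is Beta-s. The family was taken up because earlier results of these same arrays had shown it to differ between the constructs, so its levels and differences are given as a description, and calls of the fit at its probes are counted only beside those over all probes and support nothing. RNA of 17 samples was hybridised, each with Cy3 label, to 1-colour Agilent arrays. All samples came from DA1-3b, a mouse leukaemia cell line that carries Bcr-Abl, of strain C3H eOuJ, and all had been transfected with plasmids for p65/RelA, the main activating subunit of NF-kB. The groups were the non-cleavable point mutant D361E (4 arrays), the N-terminal fragment 1-361 (3 arrays), the C-terminal fragment 362-549 (3 arrays), both fragments together (1-361+362-549, 3 arrays) and wild-type p65 (WT, 4 arrays). Wild-type p65 is itself overexpressed, no untransfected or empty-plasmid cells were analysed here, and the labels name neither a promoter nor a clone. They also do not say that the arrays come from separate cultures. The p-values and errors of the fit therefore reflect only how far arrays within the groups differ, pooled over all groups. That spread can be technical, and the small number of arrays limits the precision.

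Haemoglobin is a tetramer of alpha-like and beta-like chains. Mouse erythroid cells of the yolk sac use the embryonic beta-like genes Hbb-y and Hbb-bh1 and the embryonic alpha-like gene Hba-x. Definitive erythroid cells of the fetal liver and adult marrow use Hba-a1 and Hba-a2 with a pair of adult beta genes. Mouse strains differ in the pair they carry, which is Hbb-bt and Hbb-bs or Hbb-b1 and Hbb-b2. Which pair the cells used here carry was not looked up, so a probe of either pair may read transcripts of the other. GATA1, TAL1 and KLF1 are the transcription factors best known for driving these genes, and DA1-3b is a blood cell line but not a red cell line.

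The 3 probe sequences below are those of an adult alpha, an adult beta and an embryonic beta probe, written 5′ to 3′ with no part in capitals. They were not aligned to transcripts and do not settle which genes the readings come from. Each was taken to lie in coding sequence because its sense strand has an open frame and it sits well inside its record, which was not looked up against a transcript model. On mm9, the build of the array files, the Hba-a1 probe lies at chr11:32183955-32184014 on the plus strand. The first Hbb-y probe lies at chr7:111000448-111000507 on the minus strand, and the array files place the Hbb-b2 probe nowhere on mm9.
Hba-a1: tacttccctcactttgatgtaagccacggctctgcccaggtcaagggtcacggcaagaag
Hbb-b2: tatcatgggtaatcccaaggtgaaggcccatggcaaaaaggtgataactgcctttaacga
Hbb-y probe 1: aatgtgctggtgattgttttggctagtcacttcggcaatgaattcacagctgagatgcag

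The names on the array are old. The record behind its Hbb-b1 probe is now Hbb-bt in RefSeq, and Beta-s is now Hbb-bs. Both alpha probes list records of Hba-a1 and of Hba-a2, so they cannot tell these 2 genes apart. The adult beta genes are also alike. Of the bases of the Beta-s probe that could be set against a transcript start, 46 of 46 were identical to Hbb-bs and 38 of 45 to Hbb-bt. The adult beta probes may therefore share signal, and each is given apart under its array name. On the minus strand of chromosome 7 of mm9, Hbb-bh1 lies at chr7:110990209-110990268, Beta-s at chr7:110976379-110976438 and Hbb-b1 at chr7:110961105-110961164, and the second Hbb-y probe at chr7:111000268-111000327 holds a polyadenylation signal. The Hba-a2 probe, at chr11:32197245-32197304 on the plus strand, holds one as well, and both probes were read as 3' untranslated sequence.

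The CACCC box and the CCAAT box are textbook elements of globin promoters. The promoters of 4 globin genes are shown because the probes assigned to these genes moved together or apart in the results below. They are the 150 bases before the gene start in RefSeq (GRCm38.p6), with CACCC and CCAAT in capitals where they occur on either strand, so that ATTGG in capitals is a CCAAT on the other strand. That reference is the C57BL/6J genome and not the genome of these cells. The gene behind the Hbb-b1 probe stands there as Hbb-bt, and promoters of Hbb-bh1 and Hbb-b2 are not shown.
Hbb-bt, chr7:103813924-103814073, minus strand: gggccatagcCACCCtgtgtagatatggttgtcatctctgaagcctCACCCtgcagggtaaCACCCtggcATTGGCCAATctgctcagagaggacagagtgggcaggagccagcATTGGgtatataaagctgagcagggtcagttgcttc
Hbb-bs, chr7:103827929-103828078, minus strand: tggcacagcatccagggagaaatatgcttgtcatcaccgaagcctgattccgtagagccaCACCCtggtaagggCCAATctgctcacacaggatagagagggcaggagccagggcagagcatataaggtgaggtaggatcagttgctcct
Hbb-y, chr7:103853208-103853357, minus strand: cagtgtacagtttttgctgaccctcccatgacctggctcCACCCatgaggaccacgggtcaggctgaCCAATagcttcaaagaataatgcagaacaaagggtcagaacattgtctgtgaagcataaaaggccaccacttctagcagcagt
Hba-a1, chr11:32283522-32283671, plus strand: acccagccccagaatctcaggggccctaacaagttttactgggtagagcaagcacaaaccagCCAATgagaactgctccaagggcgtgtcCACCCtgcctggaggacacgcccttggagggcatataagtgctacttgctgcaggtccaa

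The Hbb-bt promoter held 3 CACCC matches and 3 CCAAT matches, and each of the Hbb-bs, Hbb-y, Hba-a1 and Hba-a2 promoters held 1 of each. Hba-x held 1 CACCC and 1 TGATAA, a form of the site that GATA factors bind, and Hbb-bh2 held neither box. The other GATA form searched, AGATAA, was found in 0 of these 7 windows. Of 32851 promoters of the same length, 37.4% held CACCC, 24.5% CCAAT, 5.65% AGATAA and 4.45% TGATAA, either strand counted. These matches describe letters in a window and say nothing of a factor's binding.

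Levels below are log2 values of the background-subtracted signal relative to the 75th percentile of the same array, so a level of 0 is the brightness of that percentile. A probe counts as well above background where the scanner software marks it so. Of the 12 globin probes, 8 were well above background on all arrays of some group and entered the fit. The other 4 were well above background on 0 of 17 arrays. They were Hba-x, the embryonic alpha-like gene, with group means of -7.08 to -6.51, and the 3 probes of Hbb-bh2, a further beta-like gene, with group means of -7.30 to -5.32. No globin spot was saturated. These are bulk samples, in which more cells with globin RNA and more globin RNA per cell cannot be told apart.

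Adult beta globin was far higher with the C-terminal fragment than with any other construct. Hbb-b1 read 4.47, 4.97 and 5.16 on the 3 arrays of 362-549. With 1-361 it read 2.53, 2.34 and 2.81, with D361E 1.99, 2.10, 2.33 and 0.71, and with 1-361+362-549 0.77, 0.51 and 0.91. With WT it read -0.92, -0.41, -0.23 and -0.82. All 13 arrays of the other constructs lay above all 4 WT arrays, the 3 arrays of 362-549 lay above everything else, and D361E overlapped 1-361+362-549 only through its replicate 4.

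**Figure D1:**
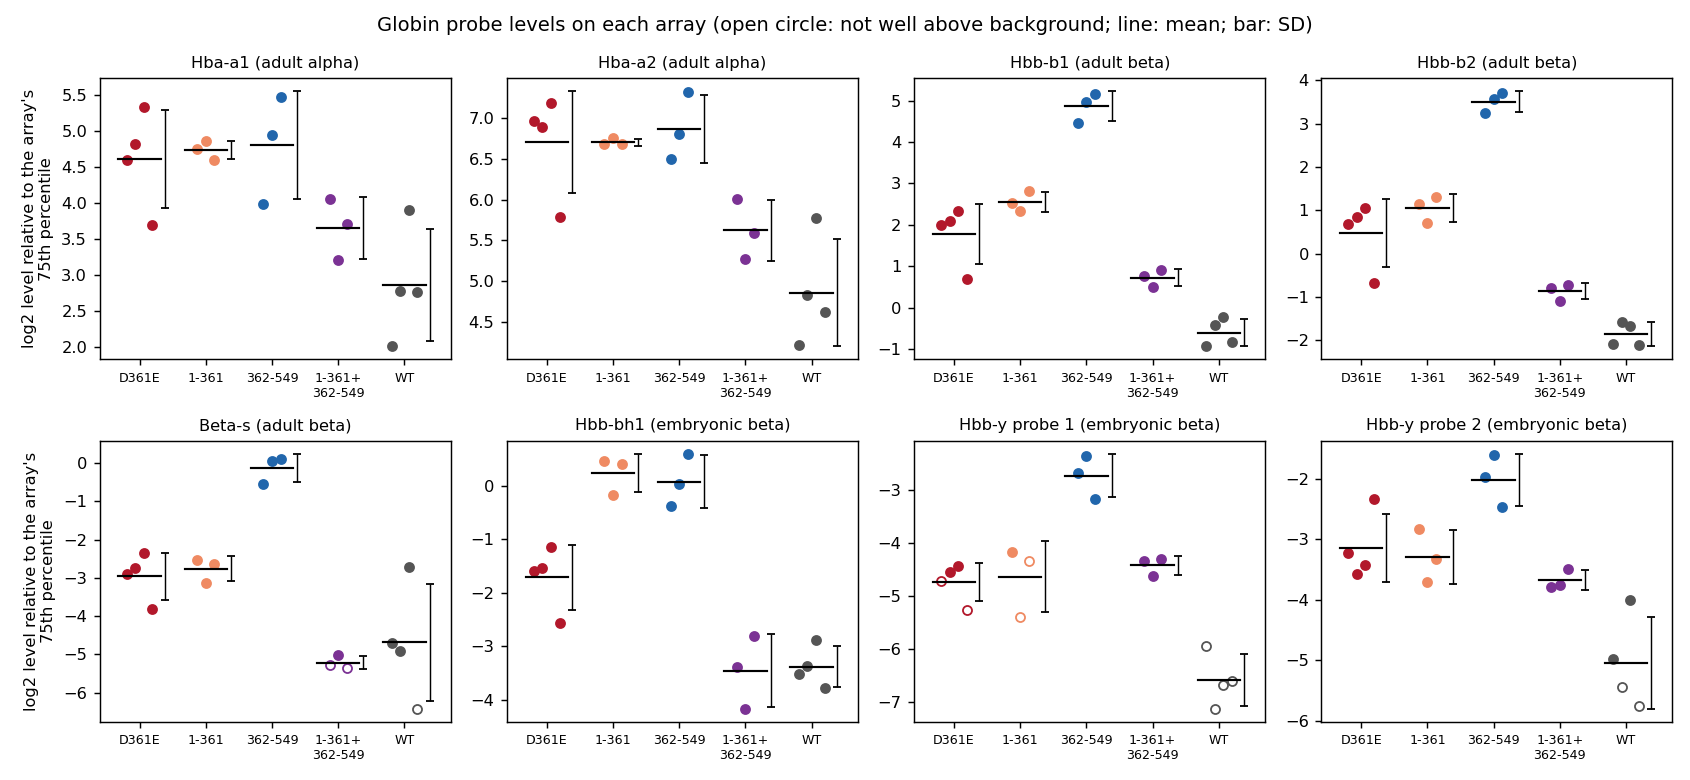
Level of each tested globin probe on each array, by construct, on the log2 scale relative to the array's 75th percentile; each panel has its own vertical axis. Points are arrays (open where not well above background), lines are group means and bars are SDs. Hbb-b1, Hbb-b2 and Beta-s stand highest with 362-549, while Hbb-bh1 has about the same level with 1-361 and with 362-549.

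The fitted difference of Hbb-b1 from WT was 5.47 ± 0.32 (SE) for 362-549, a 44.2-fold higher signal. It was 3.16 ± 0.32 for 1-361 (8.91-fold), 2.38 ± 0.29 for D361E (5.20-fold) and 1.33 ± 0.32 for 1-361+362-549 (2.51-fold). Between the fragments, Hbb-b1 was 2.31 ± 0.34 higher with 362-549 than with 1-361 (4.96-fold). The arrays lay on 6 slides, and slides that held both groups could be read alone. Within slides the difference from WT was 5.20 to 5.57 for 362-549, 3.04 to 3.26 for 1-361, 1.63 to 2.93 for D361E and 1.44 for 1-361+362-549, and that between the fragments was 2.16. With slide as a block the 5 differences were 5.29, 3.23, 2.48, 1.43 and 2.06 in the same order.

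The second adult beta probe followed the first. Hbb-b2 read 3.24, 3.58 and 3.71 with 362-549 and 1.16, 0.70 and 1.31 with 1-361. With D361E it read 0.68, 0.85, 1.05 and -0.68, with 1-361+362-549 -0.78, -1.08 and -0.73, and with WT -2.09, -1.58, -1.66 and -2.10. The order of the group means was that of Hbb-b1, and here 1-361 and D361E overlapped. The differences from WT were 5.37 ± 0.32 for 362-549, 2.91 ± 0.32 for 1-361, 2.33 ± 0.30 for D361E and 0.99 ± 0.32 for 1-361+362-549. After each probe was set to its WT mean, Hbb-b1 and Hbb-b2 differed by a root mean square of 0.198 over the 17 arrays.

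Beta-s was dim, and its spread with WT was wide. It read -0.54, 0.057 and 0.11 with 362-549, -2.53, -3.13 and -2.63 with 1-361, -2.91, -2.75, -2.35 and -3.80 with D361E, and -5.27, -5.02 and -5.35 with 1-361+362-549. With WT it read -4.69, -4.91, -2.71 and -6.43. It was well above background on 1 of 3 arrays of 1-361+362-549 and on 3 of 4 WT arrays. The 362-549 arrays again lay above all others, by 4.56 ± 0.59 over WT and 2.64 ± 0.63 over 1-361. These errors come from a spread shared by all groups, so the wide WT spread also enters the second. The SDs were 0.36 with 362-549, 0.32 with 1-361 and 1.53 with WT. Under normexp, a background correction that adds an offset of 50 to every signal and so shrinks differences of dim probes, the difference from WT was 2.42 for 362-549, 0.32 for 1-361 and 0.24 for D361E. The WT mean of -4.68 moves with its highest and its lowest array. The difference for 1-361+362-549 against WT was -0.53 ± 0.59, and it was 0.13 without WT replicate 3 and -1.11 without WT replicate 4. WT replicate 3 was the 1 WT array that reached the range of D361E and 1-361.

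Adult alpha globin had the order of group means of Hbb-b1, but the single fragments and D361E lay close together. Hba-a2, the brightest reading of the family, read 6.49, 6.80 and 7.31 with 362-549, 6.68, 6.75 and 6.68 with 1-361 and 6.96, 6.89, 7.18 and 5.78 with D361E. With 1-361+362-549 it read 6.01, 5.27 and 5.59, and with WT 4.21, 4.83, 5.77 and 4.63. The first 3 constructs overlapped one another, and their means of 6.87, 6.70 and 6.70 lay within 1 SD of the wider-spread groups. The double-fragment arrays overlapped D361E through its replicate 4 and WT through its replicate 3, and lay below the other arrays of the first 3 constructs and above the other WT arrays.

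The differences of Hba-a2 from WT were 2.01 ± 0.36 for 362-549 (4.02-fold), 1.84 ± 0.36 for 1-361 (3.58-fold), 1.84 ± 0.33 for D361E (3.58-fold) and 0.76 ± 0.36 for 1-361+362-549 (1.70-fold). Between 362-549 and 1-361 it was 0.17 ± 0.38, and with slide as a block -0.057. Within slides the differences from WT were 1.03 to 2.48, 0.91 to 2.54, 1.57 to 2.26 and 1.06 in the order of the constructs above. The low values of 362-549 and 1-361 came from the slide that held WT replicate 3. Hba-a1 gave 1.93 ± 0.44, 1.87 ± 0.44, 1.74 ± 0.41 and 0.79 ± 0.44 in that order, at levels between 2.01 and 5.47. Its differences followed those of Hba-a2 with a root mean square of 0.185.

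**Figure D2:**
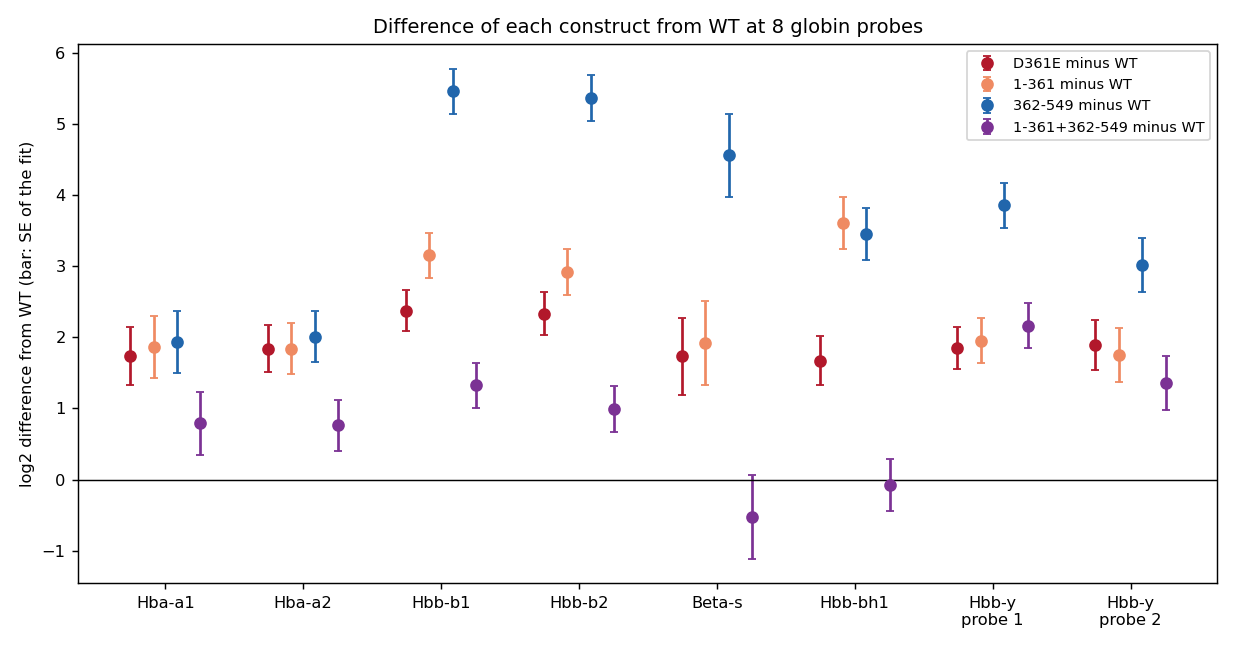
Difference of each construct from WT at the 8 tested globin probes, on the log2 scale; bars are the SE of the fit, which shares 1 spread over the 5 groups, and the zero line is WT, which was not well above background at Hbb-y probe 1. The adult beta probes reach 4.56 to 5.47 with 362-549, the alpha probes have about the same difference with D361E, 1-361 and 362-549, and Hbb-bh1 has no difference beyond its error with 1-361+362-549.

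The embryonic gene Hbb-bh1 was as high with the N-terminal as with the C-terminal fragment. It read -0.39, 0.023 and 0.59 with 362-549 and 0.46, -0.18 and 0.41 with 1-361. With D361E it read -1.60, -1.53, -1.14 and -2.57, with 1-361+362-549 -3.39, -4.17 and -2.82, and with WT -3.53, -3.36, -2.87 and -3.78. The single fragments overlapped each other and lay above all D361E arrays, D361E lay above all WT arrays, and the double-fragment arrays covered the WT range.

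The differences of Hbb-bh1 from WT were 3.46 ± 0.37 for 362-549 (11.0-fold), 3.61 ± 0.37 for 1-361 (12.2-fold), 1.68 ± 0.34 for D361E (3.19-fold) and -0.073 ± 0.37 for 1-361+362-549. Between 362-549 and 1-361 it was -0.15 ± 0.39, and -0.39 on the 1 slide that held both. Within slides the differences from WT were 2.90 to 3.95, 3.28 to 3.34, 0.96 to 2.25 and -0.64 in the order given. The sign of the last changed without scaling (0.12) and without 1-361+362-549 replicate 2 (0.28) or WT replicate 3 (0.097). The D361E value was 0.81, and those of 1-361 and 362-549 were 2.49 and 2.28, under normexp.

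Hbb-y, the epsilon-like embryonic gene, had 2 probes, both dim. Probe 1 read -2.67, -2.35 and -3.16 with 362-549, -4.17, -5.39 and -4.33 with 1-361, -4.71, -4.55, -4.44 and -5.26 with D361E and -4.33, -4.62 and -4.31 with 1-361+362-549. With WT it read -5.94, -7.13, -6.68 and -6.61. All 362-549 arrays lay above all others and all WT arrays lay below, while the remaining 3 constructs overlapped. Probe 1 was well above background on 3 of 3 arrays of 362-549, 1 of 3 of 1-361, 2 of 4 of D361E, 3 of 3 of 1-361+362-549 and 0 of 4 of WT.

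Against WT only a bound can therefore be given for probe 1, from the brighter group's mean over the lowest signal that was well above background on each WT array. It was at least 5.04-fold higher with 362-549 and at least 1.56-fold higher with 1-361+362-549. No bound is given for 1-361 and D361E, where not all arrays were well above background themselves. Under normexp the fitted differences of 362-549 and 1-361+362-549 were 0.81 and 0.32, and those of 1-361 and D361E turned to -0.068 and -0.20. Probe 2 read -1.98, -1.61 and -2.46 with 362-549, -2.83, -3.71 and -3.33 with 1-361, -3.23, -3.58, -3.42 and -2.33 with D361E, and -3.79, -3.75 and -3.49 with 1-361+362-549. With WT it read -4.97, -5.44, -4.00 and -5.74, of which 2 of 4 were well above background. Here D361E replicate 4 was the highest of its group, whereas at probe 1 it was the lowest, and the 2 probes differed by a root mean square of 0.731 over the arrays.

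The differences of probe 2 from WT were 3.02 ± 0.38 for 362-549, 1.75 ± 0.38 for 1-361, 1.90 ± 0.35 for D361E and 1.36 ± 0.38 for 1-361+362-549. Under normexp they were 1.09, 0.24, 0.36 and 0.29. Both probes kept the double-fragment arrays above every WT array, unlike Hbb-bh1, the other embryonic beta-like gene, where the double-fragment arrays overlapped WT. Between 362-549 and 1-361, probe 2 was 1.27 ± 0.41 higher with 362-549 (0.85 under normexp). At probe 1 the fitted difference was 1.90 ± 0.34, but 1-361 was well above background there on 1 of 3 arrays, and under normexp it was 0.88.

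Ratios of 2 probes on the same array show unequal change without any scaling between arrays. The log2 ratio of adult Hbb-b1 to embryonic Hbb-bh1 was 4.79 ± 0.20 (SD, n = 3) with 362-549 and 2.33 ± 0.24 (n = 3) with 1-361. It was 3.49 ± 0.16 (n = 4) with D361E, 4.19 ± 0.48 (n = 3) with 1-361+362-549 and 2.79 ± 0.19 (n = 4) with WT. Relative to WT it was 2.01 higher with 362-549 and 0.46 lower with 1-361, but the sign for 1-361 depended on the background correction. Under normexp the ratio was 2.93 higher than WT with 362-549 and 0.48 higher with 1-361, and under the other alternatives the 1-361 value stayed below 0. The 3 arrays of 1-361 reached at most 2.52, below the lowest WT array at 2.60, a small gap beside the spread.

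With the other embryonic gene in its place, the order was different. The log2 ratio of Hbb-b1 to Hbb-y probe 2 was 6.89 ± 0.64 with 362-549, 5.85 ± 0.43 with 1-361, 4.92 ± 1.28 with D361E, 4.40 ± 0.14 with 1-361+362-549 and 4.44 ± 0.63 with WT. Here 362-549 was again the highest, while 1-361 stood 1.41 above WT and the double fragment did not differ from WT beyond the spread. Under normexp these differences from WT were 4.13, 2.73, 1.83 and 0.84 in the order of the constructs.

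The ratio of Hbb-b1 to the alpha probe Hba-a2 was -2.00 ± 0.16 with 362-549 and -4.14 ± 0.28 with 1-361. It was -4.92 ± 0.13 with D361E, -4.89 ± 0.31 with 1-361+362-549 and -5.46 ± 0.38 with WT. The 362-549 arrays thus had 3.46 more adult beta per alpha than WT on the log2 scale, and 1-361 had 1.31 more. The ratio of the 2 alpha probes stayed between -2.09 and -1.97 in the group means, and that of Hbb-b1 to Hbb-b2 between 1.26 and 1.59. These ratios compare groups, and their size within 1 group depends on the probes.

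**Figure D3:**
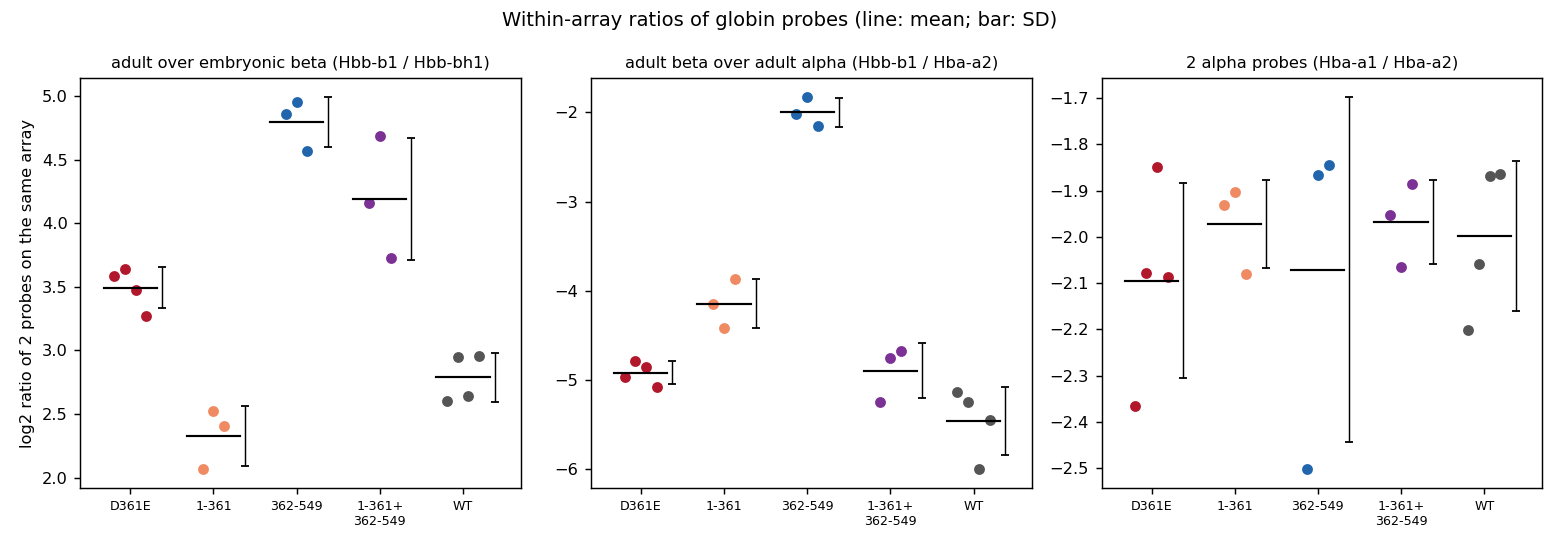
Log2 ratio of 2 globin probes on the same array, by construct; points are arrays, lines group means and bars SDs, and each panel has its own vertical axis. The ratio of adult Hbb-b1 to embryonic Hbb-bh1 is highest with 362-549 (4.79) and lowest with 1-361 (2.33; above WT under normexp), and the ratio of adult beta to alpha is highest with 362-549 (-2.00).

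Within a group the globin probes tended to have the same high and low arrays. Replicate 4 was the lowest D361E array at 7 of the 8 probes and replicate 3 the highest at 7. Replicate 3 was the highest WT array at 6 of 8, replicate 3 the highest 362-549 array at 6 of 8, and replicate 1 the lowest 362-549 array at 6 of 8. The numbers of the sample titles run in rounds, and the labels do not say what a round is. The high arrays named here for D361E, WT and 362-549 were all of round 3. So was 1-361+362-549 replicate 3, the highest of its group at 5 of 8. But 1-361 replicate 2, also of round 3, was the lowest of its group at 6 of 8. Over all alternatives tried, the leaving out of each array included, the Hbb-b1 difference of D361E from WT stayed within 2.16 to 2.74.

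Over the 19769 probes tested, limma called 0.622% for 362-549 against WT at an adjusted p under 0.05, 0.637% for 1-361, 0.435% for D361E and 4.57% for 1-361+362-549. Of the 8 globin probes 7, 5, 6 and 2 were among them, all higher than WT. For 362-549 against 1-361 it called 0.536%, 3 globin probes among them. Every array of the construct lay above every WT array at 8 of the 8 globin probes for 362-549 (6.46% of all probes), 7 for 1-361 (5.93%), 6 for D361E (1.78%) and 4 for 1-361+362-549 (8.79%). Likewise 5 globin probes lay wholly higher with 362-549 than with 1-361 (5.44%). The alternatives tested 8 globin probes, apart from the changes of filter. These tested 5 where probes had to be well above background on all 17 arrays, 7 with the brightest probe of each gene and 12 without the filter. Over the alternatives tried the called globin probes ranged from 4 to 8 for 362-549, 3 to 8 for 1-361, 2 to 8 for D361E, 0 to 4 for 1-361+362-549 and 1 to 4 between the fragments. With slide as a block they were 7, 3, 2, 1 and 1 in this order, under normexp 4, 3, 2, 0 and 2, with the round of the sample titles as a block 8, 6, 7, 4 and 4, and without WT replicate 3 8, 8, 8, 3 and 4. Since the family was chosen for these differences, nothing is read from these counts. All 4 comparisons with WT share the WT arrays.

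In the comparisons without 1-361+362-549, other erythroid genes were called about as seldom as probes in general. Of 86 genes in lists of erythroid regulators, heme and iron genes, red cell membrane and enzyme genes, and genes of haemoglobin assembly and other globins, 63 could be tested. Of these, limma called 0 for 362-549, 0 for 1-361 and 0 for D361E against WT, and 0 between 362-549 and 1-361, where the shares of all probes given above come to less than 1 gene in 63. At an unadjusted p under 0.05 the counts were 4, 3, 3 and 1, or 6.35%, 4.76%, 4.76% and 1.59%, beside 8.30%, 7.12%, 4.61% and 5.33% of all probes. The median differences of the 63 genes were 0.058, 0.012, -0.022 and 0.065, beside 0.054, 0.042, 0.024 and 0.0098 over all probes.

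The main erythroid transcription factor genes were well above background on all 17 arrays. Gata1, the master regulator, averaged 5.28 ± 0.31 (SD, n = 3) with 362-549, 5.05 ± 0.24 with 1-361, 5.03 ± 0.16 with D361E, 4.90 ± 0.19 with 1-361+362-549 and 5.25 ± 0.17 with WT. Tal1, its partner factor, averaged 4.52 ± 0.17, 4.44 ± 0.03, 4.18 ± 0.18, 4.03 ± 0.09 and 4.24 ± 0.07 in the same order. Myb, a factor of immature blood cells, lay between 2.09 and 2.46 in all group means.

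Klf1, which binds the CACCC box and is needed for adult beta globin expression in mice, was the 1 gene of the 63 with an unadjusted p under 0.05 between the single fragments. It read 1.41, 1.53 and 1.19 with 362-549 and 0.63, 0.24 and 0.55 with 1-361, as the plot of erythroid genes shows, with group means of 1.38 ± 0.17 and 0.47 ± 0.20. The means were 1.16 ± 0.20 with D361E, 0.30 ± 0.07 with 1-361+362-549 and 1.14 ± 0.34 with WT. The difference between 362-549 and 1-361 was 0.91 ± 0.19 and missed the threshold (limma adjusted p = 0.0524). It passed without D361E replicate 4 (0.0458) or WT replicate 3 (0.0156). For 1-361 against WT it was -0.67 ± 0.18 (limma adjusted p = 0.196), and 0.0207 without WT replicate 3.

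With 1-361+362-549 against WT, limma called 4 of the 63 erythroid genes, 2 higher and 2 lower, beside the 4.57% of all probes given above. At an unadjusted limma p under 0.05 there were 15 of the 63, or 23.8%, beside 17.1% of all probes. Klf1 fell by 0.84 ± 0.18 (limma adjusted p = 0.0123), and Mafk, a small Maf subunit of the globin enhancer factor NF-E2, fell by 0.77 ± 0.18 (0.018). Epor, the erythropoietin receptor gene, was 0.44 ± 0.11 higher (0.0361). Add2, a subunit gene of the membrane skeleton protein adducin, was 2.46 ± 0.34 higher (0.000291), at -0.52 ± 0.39 against -2.98 ± 0.24 with WT. On the 1 slide with both groups, the values were -1.04, -0.62, 0.39 and 2.16. With slide as a block Add2 kept its call (limma adjusted p = 0.00726), and Klf1, Mafk and Epor lost theirs (0.225, 0.351 and 0.345). Klf1 also lost it without 1-361+362-549 replicate 1, and Mafk without replicate 1 or 2 of that group. Epor lost it without any of 8 arrays, namely 1-361+362-549 replicates 1 and 2, D361E replicate 2, 1-361 replicates 2 and 3, and WT replicates 1, 2 and 3. Add2 was called lower with D361E without D361E replicate 1 (-1.54, limma adjusted p = 0.0345), and not with it (-1.26 ± 0.31, 0.145).

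**Figure D4:**
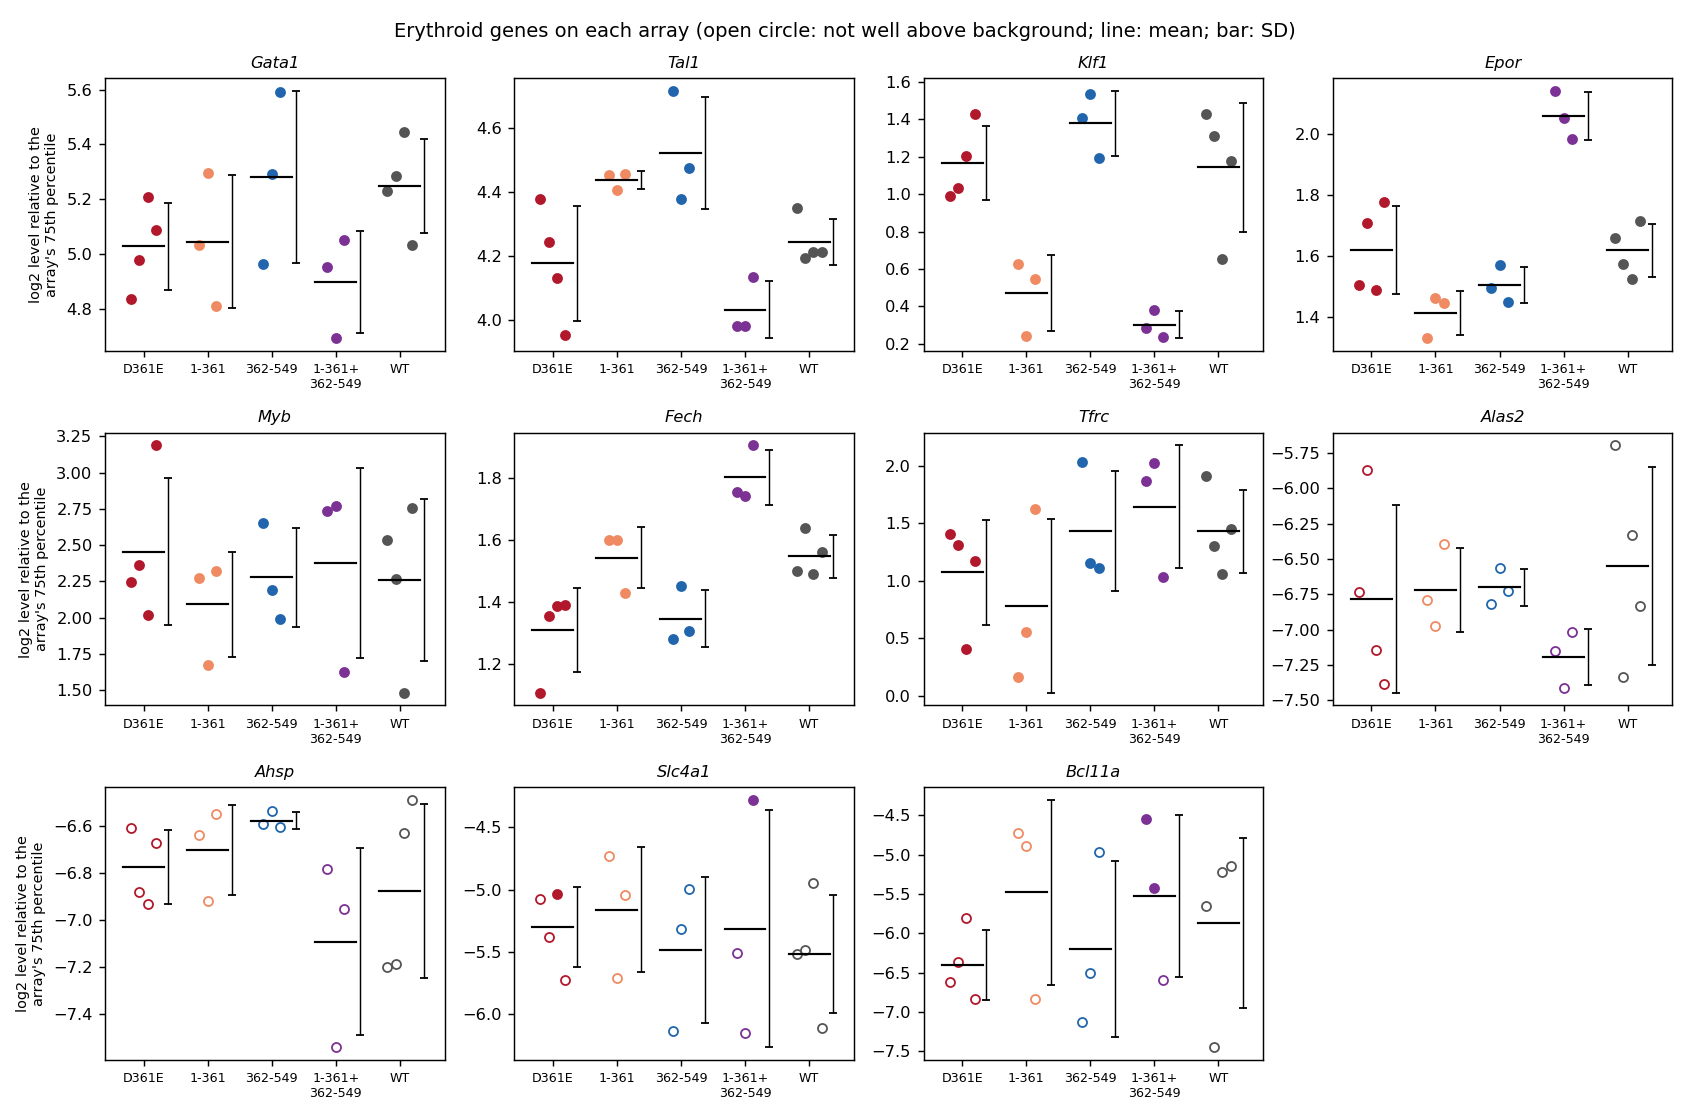
Level of erythroid genes on each array, by construct, on the log2 scale relative to the array's 75th percentile; each panel has its own vertical axis. Points are arrays (open where not well above background), lines group means and bars SDs. Gata1, Tal1 and Klf1 were well above background everywhere, and Alas2 and Ahsp nowhere.

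Of the listed red cell genes, some were at background and others were well measured, which does not by itself mark red cell maturation. Of the 25 membrane and enzyme genes, 11 were well above background on all 17 arrays and 7 on 0 arrays. Among the first were Epb41, the membrane skeleton protein 4.1 gene, with group means of 4.94 to 5.71, Bpgm, the bisphosphoglycerate mutase gene, with -0.79 to -0.29, and Ank1, the ankyrin gene, with -3.63 to -3.02. Alas2, the erythroid enzyme of the first step of heme synthesis, and Ahsp, the chaperone of free alpha globin, were well above background on 0 of 17 arrays. Slc4a1, the band 3 anion exchanger, reached that mark on 2 arrays. Bcl11a, the repressor of embryonic and fetal beta-like globin genes, did so on 2 arrays, both of 1-361+362-549. Heme and iron genes that other cells also use were well measured. Fech, the last enzyme of heme synthesis, averaged 1.35 ± 0.09 with 362-549, 1.54 ± 0.10 with 1-361, 1.31 ± 0.14 with D361E, 1.80 ± 0.09 with 1-361+362-549 and 1.55 ± 0.07 with WT, and Tfrc, the transferrin receptor gene, lay between 0.78 and 1.64 in the group means.

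By list, 26 of 30 erythroid regulators, 23 of 25 heme and iron genes, 12 of 25 membrane and enzyme genes and 2 of 6 assembly and other globin genes were tested. Neuroglobin (Ngb), myoglobin (Mb) and the theta globin gene Hbq1a were well above background on 0 arrays. The second theta globin gene, Hbq1b, averaged -4.48 ± 1.28 with 362-549, -5.12 ± 0.78 with 1-361, -3.73 ± 0.84 with D361E, -4.62 ± 0.96 with 1-361+362-549 and -4.56 ± 1.18 with WT, which overlap.

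Of the markers of other blood cell types, some megakaryocyte, mast cell or basophil and T cell genes were called against WT. Those of neutrophils, monocytes and B cells were not. The counts for all these lists stand beside the shares of all probes called. These shares were 0.435% to 0.637% for 362-549, 1-361 and D361E and 4.57% for 1-361+362-549. Of 6 tested megakaryocyte genes, 0 were called against WT with 362-549, 2 higher with 1-361, 1 lower with D361E and 2 higher with 1-361+362-549, and 3, 3, 3 and 4 had an unadjusted p under 0.05. Of 6 tested mast cell or basophil genes, 1 was called lower with 362-549, 2 lower and 1 higher with 1-361, 2 lower with D361E and 5 lower with 1-361+362-549. Of 4 tested T cell genes, 1 was called higher with 362-549, 2 higher with 1-361, 0 with D361E and 2 lower with 1-361+362-549. Of 5 neutrophil and monocyte genes, 0 were called against WT by limma, and 0 had an unadjusted p under 0.05. The 1 tested B cell gene was not called, with an unadjusted p under 0.05 for D361E and 1-361+362-549.

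Levels of the genes of each list were also summed on the linear scale, so that the brightest genes weigh most. The log2 of this sum for the megakaryocyte genes was 5.20 to 5.43 over the arrays of 362-549, 6.40 to 6.74 for 1-361 and 5.44 to 6.20 for D361E. It was 6.90 to 7.61 for 1-361+362-549 and 5.47 to 5.87 for WT. That of the mast cell or basophil genes was 1.65 to 2.44, 2.57 to 3.34, 1.47 to 1.95, -1.71 to -1.29 and 2.84 to 3.66 in the same order. Neutrophil and monocyte genes summed to 3.65 to 3.99, 3.70 to 4.23, 2.58 to 4.60, 2.17 to 3.29 and 2.96 to 3.66, and T cell genes to 2.33 to 2.62, 2.61 to 3.04, 2.16 to 2.79, 1.31 to 2.39 and 2.00 to 2.56. The B cell genes summed to 0.34 to 0.76, 0.55 to 0.91, 0.99 to 1.28, 1.18 to 1.39 and 0.48 to 0.91.

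Cd3d, a chain of the T cell receptor complex, was named after its values were seen. It averaged 1.62 ± 0.08 with 362-549, 1.94 ± 0.11 with 1-361 and 1.53 ± 0.08 with D361E. With 1-361+362-549 it averaged 0.36 ± 0.10 and with WT 1.32 ± 0.09. Its group means ranked as those of Hbb-bh1, an order that rests partly on ties. The order is that of 1 of the 4 tested T cell genes, picked after its values were seen, and nothing is read from it. Hbb-bh1 did not differ beyond its error between 362-549 and 1-361 (-0.15 ± 0.39). The same held for 1-361+362-549 against WT (-0.073 ± 0.37), where Cd3d was lower. Cd3g, another chain, was well above background on all 3 arrays of each single fragment, on 1 of 4 of D361E, 0 of 3 of 1-361+362-549 and 2 of 4 of WT, while Cd8a was so on 0 of 17 arrays. The part of other cells in the globin levels was not tested.

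The genes whose pattern came closest to a globin profile were sought among 15393 tested probes with an ordinary gene name, by the root mean square difference over the 17 arrays after centring on the WT mean. For adult beta these were Fer, a tyrosine kinase gene (1.36), Cd163l1, a scavenger receptor gene (1.39), and Stfa2, a cystatin-like protease inhibitor gene (1.41), against a size of 2.69 of the profile itself. For adult alpha they were Csta2, another cystatin-like gene (0.774), Zfp111, a zinc finger gene (0.857), and Tns3, a tensin gene (0.892), against 1.54. For Hbb-bh1 they were Cd163l1 (0.728), Csta2 (0.806) and Fer (0.826), against 2.30, and for Hbb-y Fer (1.11), Zfp111 (1.22) and Csta2 (1.27), against 2.04.

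Fer, the nearest gene, lay 1.36 from the adult beta profile. Hbb-b1 and Hbb-b2 differed from each other by 0.198. Beta-s differed from Hbb-b1 by 1.204 and from Hbb-b2 by 1.070, only a little less than the 1.36 of Fer. A distance to a profile and a distance between probes are not the same measure. The adult beta probes may also share signal, so nothing is read from this comparison. Fer stood 2.49 above WT with 362-549, 2.86 with 1-361, 1.50 with D361E and -0.086 with 1-361+362-549. Cd163l1 stood 2.77, 3.64, 2.01 and -1.15 from WT in the same order, so both had the higher value with 1-361, the side on which the adult beta probes had the lower one.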

How the data were processed

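The values deposited by the authors are linear spot intensity. Scans of the arrays (design 026655, mm9) went through Agilent Feature Extraction, version 10.7.3.1 (protocol GE1_107_Sep09), per the file headers and the submitters' processing notes, and its background subtraction was kept. Here log2 of the processed signal was taken and the 75th percentile (636 to 1214) subtracted. Control and outlier spots were left out, and spots of a probe averaged. Probes bright enough on all arrays of 1 or more groups were kept, 19769 of 39429. Differences came from limma 3.58.1 (lmFit and eBayes, R 4.3.3, data.table version 1.17.8) in 1 model over 5 groups. The p-values were adjusted by Benjamini-Hochberg over all kept probes. The fit was also run on simulated data with independent noise on each array. That simulation held no slides or title rounds, so it cannot speak to their effect on the calls. The brightest kept probe stood for each listed gene. Members and lists were chosen with earlier results of these data known. Named besides the globins were Gata1, Klf1, Tal1, Bcl11a, Myb, Alas2, Fech, Ahsp, Epor, Tfrc and Slc4a1, up to 6 further called list genes per comparison, and the 3 nearest patterns per profile; 1 further gene of the rule is not reported here. Genes named otherwise were chosen after their values were seen. Replicates correlated at 0.965 to 0.995 across probes. Alternatives changed scaling, background correction, filter, slide, title round and each array in turn.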

Additional observations from a re-analysis of the deposited data

Results flagged for a closer look

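In 34 groups of 4 arrays, taken in D361E and in WT from the 8 tested globin probes and the 9 tested erythroid genes named by rule, the highest or lowest array was checked by Dixon's 95% criterion, and 2 stood apart; chance alone marks about 5% of such groups. Tal1 in WT replicate 1 was 4.35, against 4.19 to 4.21 on the other WT arrays (ratio 0.876). Fech in D361E replicate 1 was 1.11, against 1.35 to 1.39 on the other D361E arrays (ratio 0.868). No globin probe was among them.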

How the results depend on the processing

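Of 960 alternative values of the globin differences, 942 moved by less than the replicate spread or not at all. Among these, 13 changed the sign of a small difference of Beta-s, Hbb-bh1, Hba-a1 or Hba-a2. Many of the 942 could not move, since leaving out an array of a group outside a comparison does not change its difference. Another 16 moved further, all under normexp. The 2 that reversed were Hbb-y probe 1 for 1-361 (-0.068) and D361E (-0.20) against WT under normexp. The offset of 50 is large beside these dim signals. The ratio of Hbb-b1 to Hbb-bh1 for 1-361 relative to WT was -0.55 to -0.31 under the alternatives other than normexp, and 0.48 under normexp. Probes called, in the order D361E, 1-361, 362-549 and 1-361+362-549 against WT and 362-549 against 1-361, were 86, 126, 123, 904 and 106. They were 10, 29, 27, 205 and 15 under normexp, 28, 45, 74, 283 and 30 with slide as a block, and 300, 230, 227, 5853 and 305 with the title round as a replicate block. Probes well above background on all 17 arrays gave 33 for D361E, 61 for 1-361, 52 for 362-549 and 42 between the fragments, no filter on dim probes gave 57 for D361E and 69 between the fragments, and no scaling gave 507 for the double fragment. Leaving out 1 array gave 48 to 105, 82 to 143, 89 to 138, 510 (without 1-361+362-549 replicate 2) to 1432 (without its replicate 3) and 56 to 115.

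Erythroid genes called with 1-361+362-549 were 4, against 1 without scaling, under normexp or with slide as a block, 2 without the filter and 23 with the replicate block. Between the fragments 1 (Klf1) was called by quantile normalization, the brightest probe of each gene or the replicate block. Rhag was the 1 gene called without the filter for 1-361 and for 362-549, and Add2 the 1 called with the replicate block for D361E. Leaving out 1 array gave 1 to 7 for the double fragment, 0 to 0 for 362-549 and 0 to 1 in the other comparisons. Without scaling the median of all probes shifted to -0.19, -0.19, -0.36, 0.23 and -0.17, and the share of higher calls was 38.3% for D361E, 18.8% for 362-549 and 21.3% between the fragments, against 58.1%, 33.3% and 34.9% with scaling. After the mean of each group was removed, arrays of different groups were correlated with each other across probes. Same-round arrays correlated at -0.17 to 0.73 (31 pairs, median 0.42, 25 over 0.1). Arrays of different rounds correlated at -0.70 to 0.67 (84 pairs, median -0.16, 19 over 0.1). Of 17 arrays, 14 correlated best with an array of their own round, a hint from the data that the labels do not state. Dim signals limit Hbb-y and Beta-s.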
